A study of Homo sapiens with 6 samples.

Results

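The 46 genes described here encode cadherins, syndecans, immunoglobulin adhesion molecules and a few partners of the cell surface, and they were taken by symbol from a list of gene families with no threshold on a measured value, although the list was drawn up with earlier results of these data known. All 46 were found among the 60675 genes of the count table, and 31 of them passed edgeR's filter on low counts, which kept 16353 genes. RNA-seq had been run on A2058 cells, a human line from a metastatic melanoma, as 3 control wells without vitamin C and 3 wells treated with vitamin C. The treatment label and the study's methods put the dose at 100 µM for 48 h, with the medium renewed every day. A protocol note in the same labels names 50 µM sodium ascorbate instead, so the sources differ on the dose. All wells came from this single line, grown in medium with no vitamin C in its formula. The question was which adhesion genes differed in RNA level between treated and untreated wells.

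Cadherins hold neighbouring cells together by calcium-dependent binding, mostly to the same cadherin on the next cell, and their tails bind catenins that connect them to actin. Melanocytes of the skin attach to keratinocytes through E-cadherin (CDH1) and P-cadherin (CDH3), whereas melanoma cells commonly carry N-cadherin (CDH2). Immunoglobulin adhesion molecules bind without calcium, syndecans carry heparan sulfate chains that bind growth factors and matrix, and tetraspanins gather other membrane proteins into patches. The study deals with vitamin C as a cofactor of the TET enzymes, which oxidise methylated cytosine at CG dinucleotides.

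Library totals ran from 16248869 to 41884588 counts. Wells of the same group differed from each other by more than sampling noise in all 6 within-group pairs, and the chi-square divided by its degrees of freedom ran from 2.76 to 10.98. The largest values were those of vitamin C replicate 3 against the other vitamin C wells. All 12 melanocyte and melanoma markers passed the filter. Their summed level was 3457 to 3615 CPM (counts scaled to the size of the library) in control wells and 3313 to 3436 CPM in vitamin C wells. Of these 12, 4 were higher and 1 was lower. The melanosome antigen MLANA had the largest difference, with a mean of 1.54 CPM in control wells and 15.4 CPM in vitamin C wells (log2 fold change 3.38, edgeR adjusted p = 9.0e-09). PMEL (0.73), PAX3 (0.34) and TYR (0.29) were also higher, and DCT, which made up the largest part of the sum, was lower (-0.30). Summed fibroblast markers lay at 113 to 124 CPM in control wells and 186 to 217 CPM in vitamin C wells, with 4 of 7 tested markers higher (COL3A1, LUM, PDGFRB and FAP), although COL1A1 had only 42 and 36 counts per group and THY1 had 10 and 3. Endothelial markers summed to 8.30 to 9.47 CPM and 16.8 to 18.5 CPM, with 3 of 4 tested markers higher, while CLDN5 was at 0 in every library and CDH5 had 4 and 13 counts per group. Blood markers summed to 5.28 to 6.25 CPM and 9.40 to 10.9 CPM, with 1 of 3 tested markers (LAPTM5) higher. Epithelial markers summed to 73.1 to 77.5 CPM and 67.0 to 71.1 CPM, with 1 of 5 tested markers (KRT18) lower. Over all 16353 genes tested, 6.09% were called higher and 5.09% lower. The part of these markers in the results was not tested, and in RNA from whole wells a change in the number of cells of a kind cannot be told apart from a change in RNA per cell.

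The RefSeq promoter table matched 29 of the 46 genes. The sequences of 3 are shown because these genes differed between the groups in all alternative settings tried, and because they span a wide range of CG dinucleotides, the sites on which TET enzymes act. Each is the 250 bases just upstream of the most upstream RefSeq start, read 5′ to 3′ on the strand of the gene (build GRCh38.p14), with every CG in capitals; the motif reads the same on both strands. CDH19 lies at chr18:66604091-66604340 on the minus strand, CHL1 at chr3:196513-196762 on the plus strand and NRCAM at chr7:108456437-108456686 on the minus strand. GENCODE 29 places the gene starts elsewhere, at 66604138 for CDH19, 196596 for CHL1 and 108456717 for NRCAM. By that annotation the CDH19 and CHL1 stretches span the gene start, and the NRCAM stretch lies inside the gene.
CDH19: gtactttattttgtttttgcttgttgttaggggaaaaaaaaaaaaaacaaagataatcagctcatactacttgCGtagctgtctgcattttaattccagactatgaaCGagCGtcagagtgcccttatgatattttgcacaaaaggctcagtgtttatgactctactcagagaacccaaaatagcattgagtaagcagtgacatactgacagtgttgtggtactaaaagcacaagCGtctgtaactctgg
CHL1: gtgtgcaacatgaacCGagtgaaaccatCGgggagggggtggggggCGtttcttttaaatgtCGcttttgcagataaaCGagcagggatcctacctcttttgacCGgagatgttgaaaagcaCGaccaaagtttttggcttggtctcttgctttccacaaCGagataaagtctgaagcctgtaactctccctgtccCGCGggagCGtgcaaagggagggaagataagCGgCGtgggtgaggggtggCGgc
NRCAM: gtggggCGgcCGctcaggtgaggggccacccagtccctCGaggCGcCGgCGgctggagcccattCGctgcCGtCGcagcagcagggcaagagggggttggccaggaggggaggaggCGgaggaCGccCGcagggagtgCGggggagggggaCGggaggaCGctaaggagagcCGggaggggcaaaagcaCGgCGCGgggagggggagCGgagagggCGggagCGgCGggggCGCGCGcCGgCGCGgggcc

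The CDH19 sequence holds 4 CG, and 29.3% of all 35116 promoters in the table held fewer. These promoters include every start in the table, so a gene with several starts enters more than once, whereas each adhesion gene is given by 1 start. The CHL1 sequence holds 14 CG, with fewer in 55.2% of all promoters, and the NRCAM sequence holds 29 CG, with fewer in 85.9%. At least 1 CG was present in 93.9% of all promoters, whose median was 11. The medians were 12 for the 6 matched genes called higher, 18.5 for the 4 called lower and 20 for the 11 tested genes that were not called, and the ranges of the 3 sets overlapped. CHL1 and NRCAM each have 3 starts in the table, and which start these cells used was not measured. The stretch of NCAM2, which enters the median of the lower genes, began at 21146912. By GENCODE 29 it lies inside a gene that starts at 20998315. No methylation was measured in these files.

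Of the 31 tested adhesion genes, 8 were called higher and 7 lower in vitamin C wells by edgeR's quasi-likelihood test at a Benjamini-Hochberg adjusted p under 0.05. Leaving out 1 library lowered the counts in some fits. There were 5 higher members without control replicate 1, 4 without control replicate 2 and 3 without control replicate 3. Without vitamin C replicate 2 there were 5 higher members, and without control replicate 2 there were 4 lower members. The same fits hold fewer samples. Over all genes, higher calls fell from 996 to 600, 566 and 549 without control replicates 1, 2 and 3. Higher calls fell to 663 without vitamin C replicate 2, and lower calls fell from 833 to 411 without control replicate 2. With all 6 libraries the higher and lower members were 25.8% and 22.6% of those tested, against 6.09% and 5.09% of all 16353 genes tested. In either direction, 48.4% of the tested members were called, against 11.2% of all tested genes. The median level was 56.9 CPM for the tested members and 14.5 CPM for all tested genes. When the comparison was limited to genes averaging 10 CPM or more, 13 of 24 members (54.2%) and 14.3% of all genes were called. The 3 wells of one group lay entirely above or below the 3 of the other for 20 tested members (64.5%), against 30.6% of all tested genes. This comparison was not limited by level, and the 20 include CDH3. The median log2 fold change of the tested members was -0.01 and that of all tested genes was -0.004. Most differences were small: 2 of the 15 called members, CDH3 and CD82, differed by more than 1.5-fold. CDH3, counted among the 8 higher members, passed the filter on low counts only through the vitamin C wells. DESeq2 also called 13 of the 15 members, 7 higher and 6 lower. Since strand was not stated for the counting, opposite-strand partners with over 200 counts are given for NCAM1 (AP000802.1, 211 counts in all libraries), for BSG (AC009005.1, 263 counts), for CD151 (POLR2L, 2622 counts), and for JAM2, which was under the filter (ATP5PF, 13462 counts, itself lower with a log2 fold change of -0.21 and an edgeR adjusted p of 0.019). Those of CD63, MCAM and JAM3 are given where these genes are described.

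**Figure D1:**
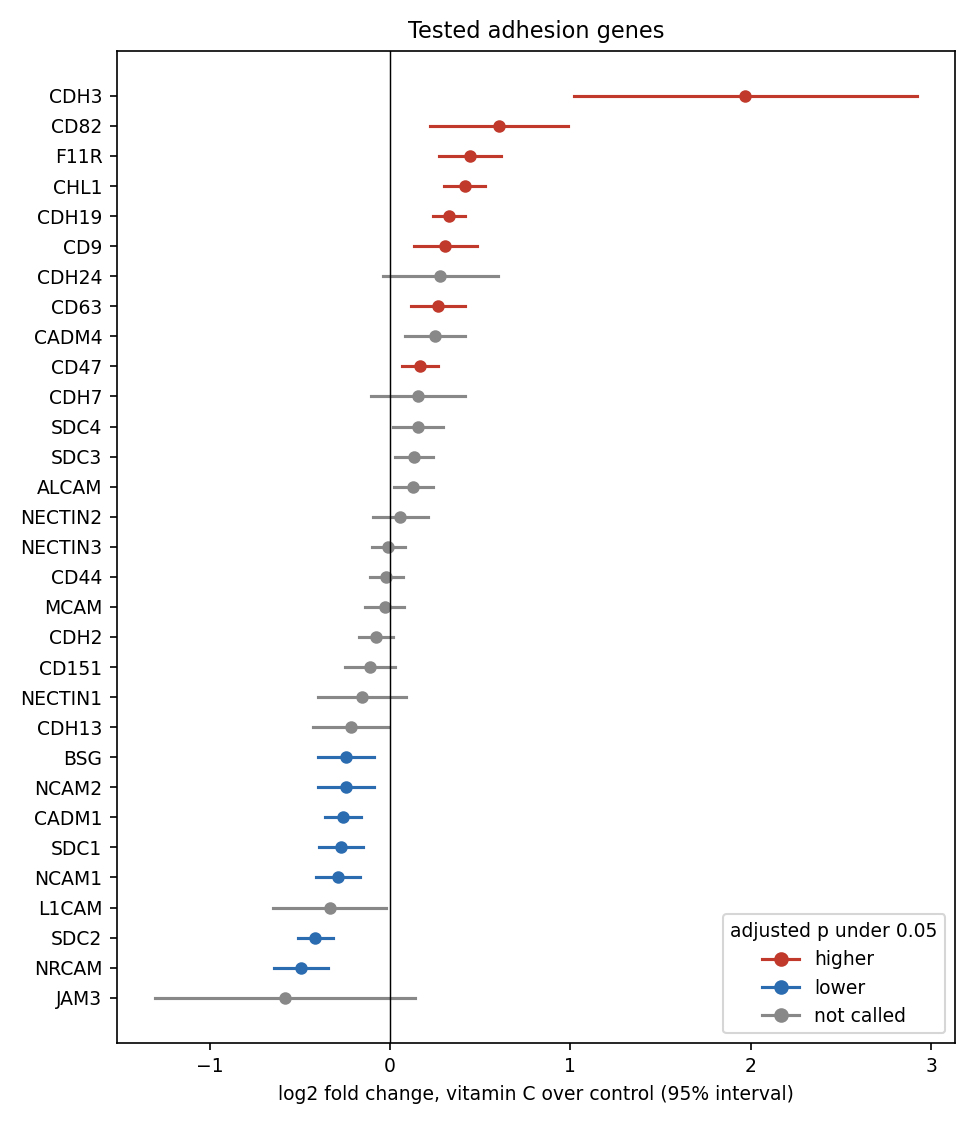
The log2 fold change (vitamin C over control) of the 31 tested adhesion genes, with its 95% interval from edgeR's quasi-likelihood fit on 3 wells per group. Red genes were called higher, blue genes lower and grey genes were not called. The points run from JAM3 at -0.58, a grey gene whose interval spans 0, to CDH3 at 1.97. The 8 red genes lie above 0 and the 7 blue genes below it. Grey genes lie near 0, as CDH2, MCAM and CD44 do, and also among the called ones. Grey L1CAM (-0.34) lies among the blue genes, and grey CADM4 (0.25) and CDH24 (0.28) lie above red CD47 (0.17).

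Levels between genes were compared per kb of exon. In control wells the highest were CD63 at 124.8, CDH2 at 94.2, SDC2 at 81.5, MCAM at 77.0 and CD44 at 51.9 CPM per kb (means of 3 wells). SDC2 and MCAM were close: the SD was 1.84 CPM per kb for SDC2 and 3.18 CPM per kb for MCAM. In vitamin C wells SDC2 stood at 61.1 ± 2.20 CPM per kb, below MCAM at 75.5 ± 4.28 CPM per kb (SD, n = 3 each). The lowest tested member was CDH3, at 0.0230 CPM per kb in control wells and 0.0968 CPM per kb in vitamin C wells.

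**Figure D2:**
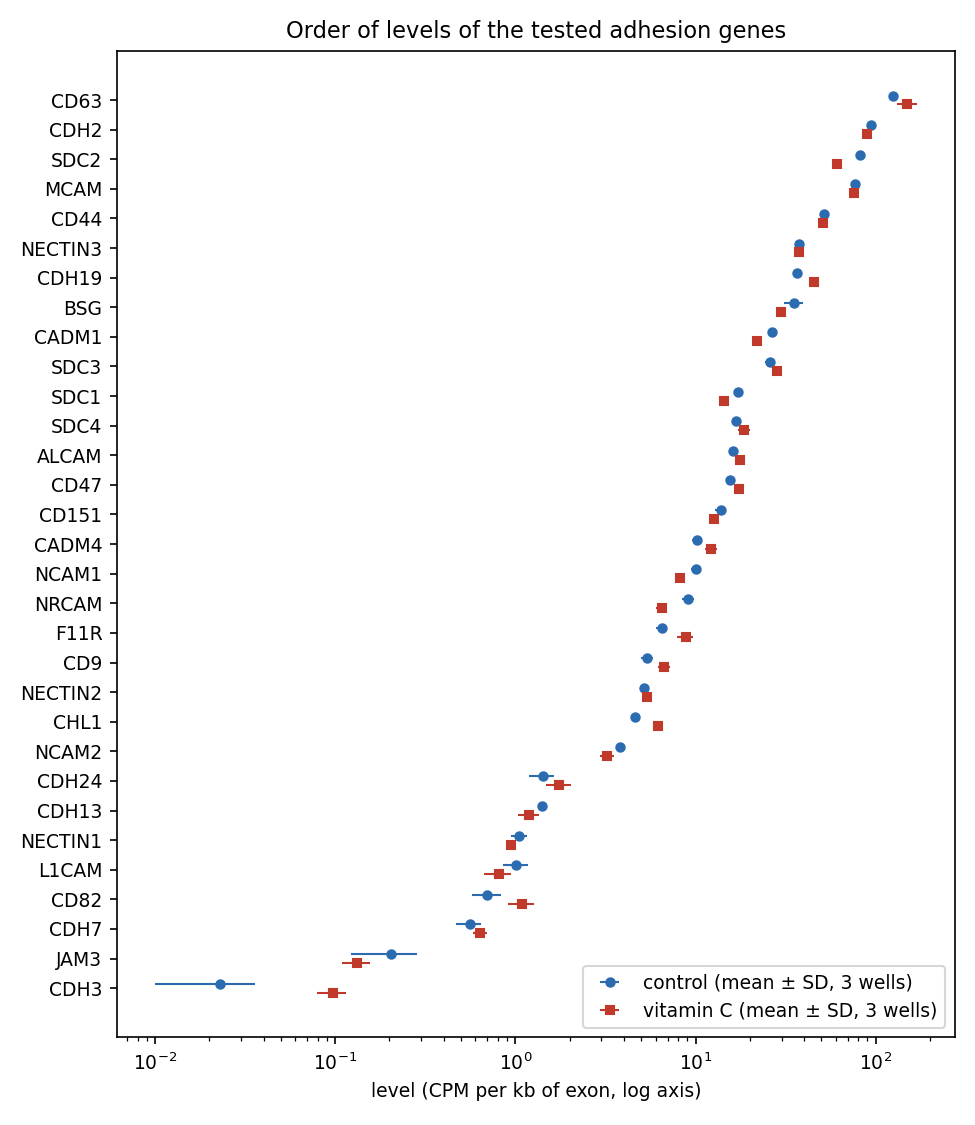
Mean level in CPM per kb of exon (log axis) of the 31 tested adhesion genes in control wells (blue circles) and vitamin C wells (red squares), with SD over 3 wells. Genes are ordered by the control mean, from CD63 at 124.8 CPM per kb down to CDH3 at 0.0230 CPM per kb, and the SDC2 square lies to the left of its circle, at 61.1 against 81.5 CPM per kb.

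N-cadherin (CDH2), which melanoma cells use to hold onto fibroblasts and endothelium, was the most abundant cadherin. Its level was 469.4, 481.0 and 448.2 CPM in control replicates 1, 2 and 3 and 451.9, 445.0 and 430.4 CPM in vitamin C replicates 1, 2 and 3. The groups overlapped, and the log2 fold change of -0.08 (95% interval -0.17 to 0.02) did not pass the test (edgeR adjusted p = 0.31).

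CDH19, a type II cadherin of the neural crest and of Schwann cell precursors, was higher in vitamin C wells. It stood at 246.6, 254.4 and 248.0 CPM in the control wells and at 308.1, 316.3 and 314.0 CPM in the vitamin C wells. Every treated well lay above every control well, and the means were 249.7 ± 4.15 and 312.8 ± 4.25 CPM (SD, n = 3 each). The log2 fold change was 0.33 with a standard error of 0.04 (edgeR adjusted p = 2.2e-04). On the CPM scale the ratio of CDH19 to CDH2 was 0.525, 0.529 and 0.553 in control wells. In vitamin C wells it was 0.682, 0.711 and 0.730, and the pair was chosen after its values were seen. Per kb of exon, CDH2 made up 70.2% ± 0.523 of the summed level of the 17 cadherins in control wells and 64.3% ± 0.919 in vitamin C wells, while CDH19 made up 27.1% ± 0.574 and 32.8% ± 0.653 (SD, n = 3). The sum itself was 134.1 ± 3.84 CPM per kb in control wells and 139.0 ± 1.60 CPM per kb in vitamin C wells.

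P-cadherin (CDH3), which joins melanocytes to keratinocytes, was higher in vitamin C wells from a very low level. The control wells held 6, 6 and 1 counts and the vitamin C wells 17, 22 and 10 counts, or 0.144, 0.223 and 0.0619 CPM against 0.665, 0.669 and 0.477 CPM. The groups did not overlap, and the log2 fold change was 1.97 with a standard error of 0.44 (edgeR adjusted p = 0.011). CDH3 passed the filter on low counts only through the vitamin C wells, where it was higher, so its call is not independent of that filter. DESeq2 gave CDH3 no adjusted p, and the call was lost without control replicate 1 (adjusted p = 0.072), without control replicate 3 (adjusted p = 0.053) and without vitamin C replicate 2 (adjusted p = 0.061).

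The other 3 tested cadherins were not called. CDH13, a cadherin held in the membrane by a lipid anchor, stood at 15.2, 16.2 and 15.5 CPM in control wells and 14.6, 14.3 and 11.3 CPM in vitamin C wells. Its groups did not overlap, with a log2 fold change of -0.22 (edgeR adjusted p = 0.18). The type II cadherin CDH24 was at 6.22, 4.62 and 5.07 CPM against 5.83, 6.11 and 7.78 CPM (log2 fold change 0.28, edgeR adjusted p = 0.26). CDH7, also of type II, was at 9.41, 8.12 and 6.81 CPM against 8.81, 8.75 and 10.2 CPM (log2 fold change 0.16, edgeR adjusted p = 0.47). The wells of the groups overlapped for both.

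E-cadherin (CDH1), the main cadherin of epithelia and of normal melanocytes, was under the filter. It had 1, 5 and 0 counts in the control wells and 7, 17 and 6 counts in the vitamin C wells. The groups did not overlap, but with so few counts CDH1 was not tested in the main fit. CDH1 and CDH3 are neighbours on chromosome 16, with 14.6 kb between them. At this depth both stayed far below CDH2, with 30 and 49 counts in all vitamin C wells against 35203 for CDH2.

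In all, 15 members were under the filter, with 1 to 67 counts each over the 6 libraries. Their counts summed to 141 in control wells and 270 in vitamin C wells, whose totals over all genes were 85130348 and 79167007. More counts in vitamin C wells were seen for 13 of the 15 and fewer for 2 (JAM2, which overlaps ATP5PF, with 21 and 10, and CDH22 with 1 and 0). By mean CPM the direction was the same for each of the 15. On the CPM scale, 61.4% of the 28461 genes under the filter with at least 1 count were higher in vitamin C wells. Those genes were not matched to the 15 by number of counts. CDH8, a type II cadherin of neurons, had 13, 2 and 5 counts in control wells and 7, 14 and 26 in vitamin C wells, so its groups overlapped and vitamin C replicate 3 was the highest. The brain cadherin CDH18 had 8 counts in control wells and 26 in vitamin C wells, and the synaptic adhesion molecule CADM2 had 7 and 25. The counts of CDH6 were 16 and 31, of CDH10 8 and 14, of CDH11 20 and 24, of CDH12 16 and 21, of CDH15 5 and 9, of NFASC 10 and 18 and of CADM3 3 and 8. CDH4 and CDH20 had 0 counts in control wells and 4 and 3 in vitamin C wells. Being under the filter, the 15 were not in the main fit and are given as counts. A fit with no filter on low counts, over 44814 genes, did include them. Their edgeR adjusted p there ran from 0.031 for CDH1 and 0.076 for CDH8 up to 0.80 for CDH11.

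The L1 family, large neuronal adhesion molecules that bind ankyrin, moved in both directions. CHL1 stood at 56.3, 54.3 and 54.1 CPM in control wells and 72.1, 75.5 and 72.03 CPM in vitamin C wells. Its groups were well apart, with means of 54.9 ± 1.23 and 73.2 ± 1.96 CPM (SD, n = 3 each) and a log2 fold change of 0.41 with a standard error of 0.05 (edgeR adjusted p = 2.1e-04). NRCAM, its relative, went down: it stood at 77.2, 79.1 and 68.4 CPM in control wells and at 56.1, 54.95 and 48.8 CPM in vitamin C wells. All treated wells lay below all control wells, and the log2 fold change was -0.49 with a standard error of 0.07 (edgeR adjusted p = 4.7e-04). On the CPM scale the ratio of CHL1 to NRCAM was 0.730, 0.687 and 0.791 in control wells. In vitamin C wells it was 1.29, 1.37 and 1.48, and the pair was chosen after its values were seen. The founding member L1CAM was low and overlapped between groups, at 7.88, 8.23 and 6.003 CPM against 5.75, 6.90 and 4.96 CPM (log2 fold change -0.34, edgeR adjusted p = 0.16).

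Both neural cell adhesion molecules were lower in vitamin C wells. NCAM1 (CD56), which carries polysialic acid in development, stood at 119.4, 130.4 and 132.2 CPM in control wells and 104.6, 109.0 and 98.5 CPM in vitamin C wells. The groups did not overlap (log2 fold change -0.29, standard error 0.06, edgeR adjusted p = 0.0046). NCAM2 was at 32.1, 31.8 and 32.0 CPM in control wells and 25.2, 26.1 and 29.9 CPM in vitamin C wells, also with no overlap (log2 fold change -0.24, standard error 0.07, edgeR adjusted p = 0.047). The NCAM2 call was lost under library size scaling, with DESeq2 and without any of control replicates 1, 2 and 3 or vitamin C replicates 1 and 2 (adjusted p from 0.050 to 0.16).

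CADM1, an adhesion molecule of epithelia, synapses and mast cells, was lower with vitamin C. Its control wells agreed closely at 291.0, 293.5 and 289.5 CPM, and its vitamin C wells were spread more widely at 230.7, 243.3 and 254.6 CPM. The log2 fold change was -0.26 with a standard error of 0.05 (edgeR adjusted p = 0.0025). CADM4, of the same family, stood at 23.8, 21.2 and 23.9 CPM in control wells and 26.1, 26.4 and 29.7 CPM in vitamin C wells. Its groups did not overlap either, but its log2 fold change of 0.25 missed the threshold (edgeR adjusted p = 0.053) and passed it in 5 of 16 alternative settings.

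The junctional adhesion molecule F11R (JAM-A), a part of tight junctions, was higher in vitamin C wells. It stood at 30.4, 34.2 and 34.1 CPM in control wells and 40.9, 43.3 and 49.9 CPM in vitamin C wells. The groups did not overlap (log2 fold change 0.45, standard error 0.08, edgeR adjusted p = 0.0028). In the annotation 36.6% of the exon bases of F11R also belong to AL591806.3 on the same strand, a gene with 1 count in all libraries. JAM3 was near the filter, with 46, 18 and 25 counts against 20, 19 and 17, and its log2 fold change of -0.58 had a wide interval of -1.30 to 0.14 (edgeR adjusted p = 0.30). JAM3 shares 8.53% of its exon bases with NCAPD3 on the opposite strand, which had 18032 counts in all libraries and was itself lower (log2 fold change -0.16, edgeR adjusted p = 0.040). With strand not stated for the counting, it is not known how reads of this shared part were assigned.

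No nectin was called by edgeR or DESeq2, and none had an unadjusted edgeR p under 0.05. NECTIN3, the most abundant of these partners of the actin adaptor afadin, stood at 234.9, 237.3 and 226.1 CPM in control wells and 234.2, 230.5 and 229.7 CPM in vitamin C wells. Its log2 fold change was -0.009, with a 95% interval from -0.10 to 0.08 and overlapping groups. NECTIN1 had a log2 fold change of -0.16 (edgeR adjusted p = 0.43) and NECTIN2 of 0.06 (edgeR adjusted p = 0.68), and their wells overlapped too.

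The melanoma cell adhesion molecule MCAM (CD146), first described as a melanoma antigen, was the most abundant immunoglobulin adhesion gene per kb. It stood at 598.9, 559.0 and 557.1 CPM in control wells and 527.2, 563.0 and 590.5 CPM in vitamin C wells. The groups overlapped (log2 fold change -0.03, 95% interval -0.14 to 0.08, edgeR adjusted p = 0.77). ALCAM (CD166), which binds CD6 on T cells, was at 116.7, 118.0 and 113.2 CPM against 122.7, 124.0 and 134.6 CPM. Its groups did not overlap, and its log2 fold change of 0.13 was not called (edgeR adjusted p = 0.12). MCAM shares 6.86% of its exon bases with CBL on the opposite strand, which had 13568 counts in all libraries.

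Basigin (BSG, CD147), a chaperone of lactate transporters that also induces matrix metalloproteinases, was lower with vitamin C. It stood at 152.5, 127.2 and 122.5 CPM in control wells and 115.0, 117.1 and 108.6 CPM in vitamin C wells. The groups did not overlap, but control replicate 1 stood well above the rest (log2 fold change -0.24, standard error 0.07, edgeR adjusted p = 0.045). Without control replicate 1 the log2 fold change was -0.14 (edgeR adjusted p = 0.20), and the call was also lost under library size scaling and without control replicate 2 or any of the 3 vitamin C replicates.

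CD47, which binds SIRPA on macrophages and restrains engulfment, was higher by the smallest amount among the called members. It stood at 129.3, 128.2 and 126.4 CPM in control wells and 139.6, 141.1 and 150.1 CPM in vitamin C wells. Every treated well lay above every control well (log2 fold change 0.17, standard error 0.05, edgeR adjusted p = 0.038), and the call was lost in 6 of 16 settings, among them upper quartile scaling (adjusted p = 0.056) and the removal of any control replicate (adjusted p from 0.094 to 0.13).

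CD44, the hyaluronan receptor, showed no called difference. It was at 503.7, 535.2 and 517.8 CPM in control wells and 525.2, 505.6 and 504.0 CPM in vitamin C wells. The groups overlapped (log2 fold change -0.02, 95% interval -0.11 to 0.07, edgeR adjusted p = 0.82).

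**Figure D3:**
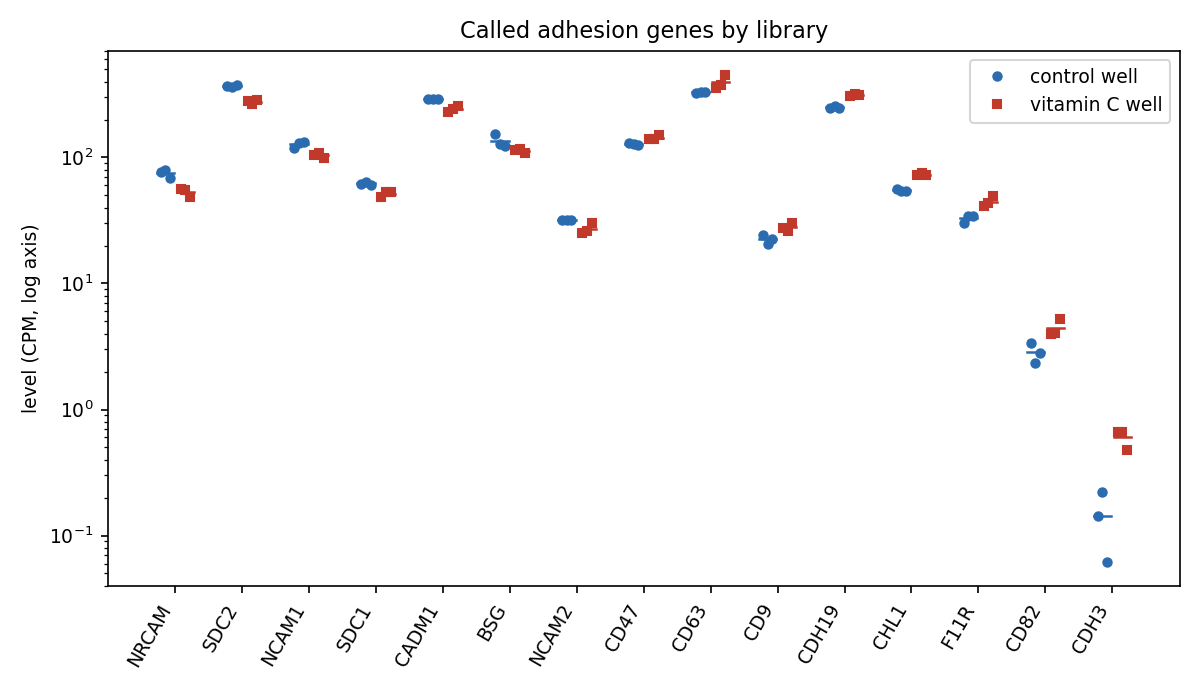
Level in CPM (log axis) of the 15 called adhesion genes in each of the 3 control wells (blue circles) and 3 vitamin C wells (red squares), with horizontal bars at the group means. NRCAM, SDC2, NCAM1, SDC1, CADM1, BSG and NCAM2 sit lower in all vitamin C wells, and the other 8 genes sit higher. CDH3 is the lowest gene, below 1 CPM in every well.

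Of the 4 syndecans, 2 were lower with vitamin C and 2 were not called. SDC2, the most abundant, which binds growth factors through its heparan sulfate chains, stood at 370.4, 360.9 and 377.5 CPM in control wells and 279.2, 266.5 and 286.2 CPM in vitamin C wells. The groups were far apart, with means of 369.6 ± 8.34 and 277.3 ± 9.97 CPM (SD, n = 3 each) and a log2 fold change of -0.42 with a standard error of 0.04 (edgeR adjusted p = 5.8e-05). SDC1, the syndecan of epithelia and plasma cells, was lower as well, at 61.3, 64.2 and 61.0 CPM against 48.6, 52.9 and 53.2 CPM. Its log2 fold change was -0.27 with a standard error of 0.06 (edgeR adjusted p = 0.0081), and the call was lost without control replicate 2 (adjusted p = 0.053).

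The remaining syndecans had values in the other direction that were not called. SDC3, the neural syndecan, was at 171.6, 184.6 and 189.7 CPM in control wells and 203.1, 199.2 and 194.8 CPM in vitamin C wells. SDC4, which sits in focal adhesions, was at 42.4, 44.4 and 44.8 CPM against 47.8, 45.8 and 52.9 CPM. Neither gene's groups overlapped (log2 fold changes 0.13 and 0.15, edgeR adjusted p = 0.10 and 0.15), and SDC3 passed the threshold without vitamin C replicate 3 (adjusted p = 0.042).

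The summed syndecan level per kb was 141.3 ± 2.57 in control wells and 122.3 ± 3.27 CPM per kb in vitamin C wells (SD, n = 3). SDC2 made up 57.7% ± 1.02 of it in control wells and 50.0% ± 0.588 in vitamin C wells. The shares of SDC3 were 18.2% ± 0.672 and 23.0% ± 0.963, those of SDC4 11.9% ± 0.211 and 15.3% ± 0.744, and those of SDC1 12.2% ± 0.468 and 11.7% ± 0.633. The ratio of SDC2 to SDC3, on the CPM scale, was 2.16, 1.95 and 1.99 in control wells and 1.37, 1.34 and 1.47 in vitamin C wells. It was 1 of 4 member ratios chosen after their values were seen. The others were CDH19 to CDH2, CHL1 to NRCAM and CD63 to CD151. The CD63 to CD151 ratio was 5.78, 6.54 and 5.93 in control wells and 7.58, 7.38 and 8.63 in vitamin C wells. An exact permutation test gave p = 0.1 for each ratio. That is the smallest p it can reach with 3 wells per group, so it cannot decide.

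**Figure D4:**
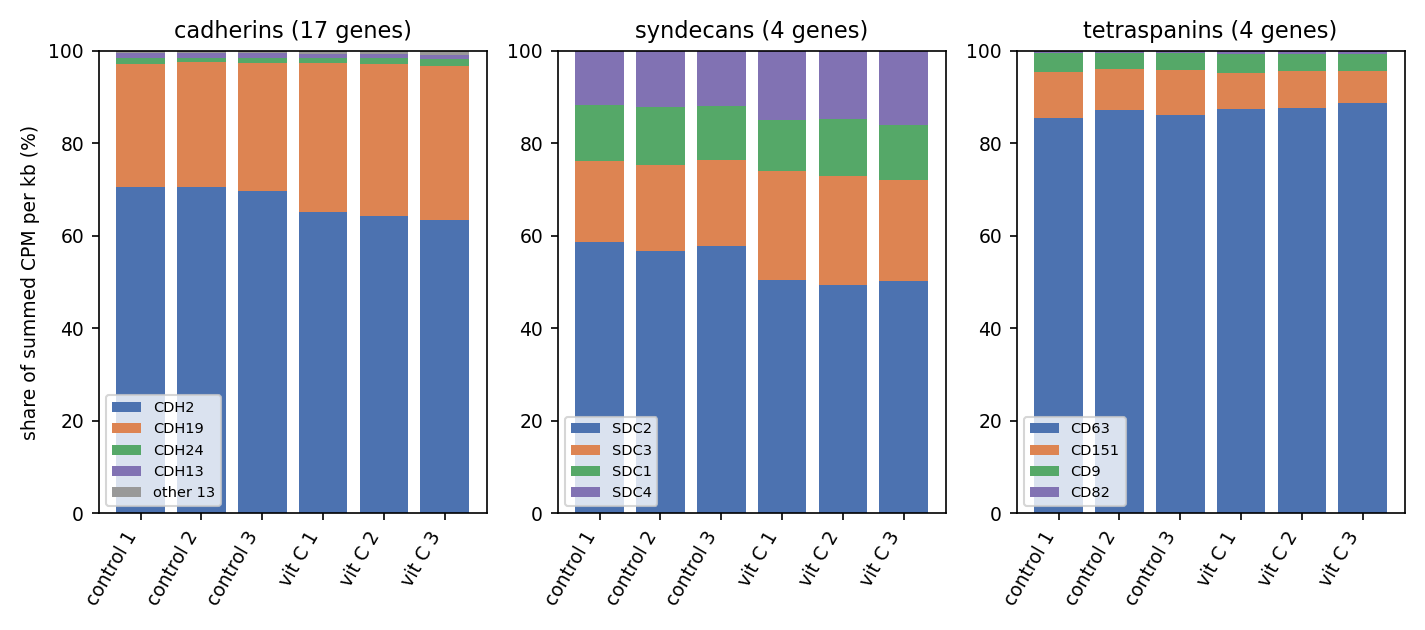
Share of the summed CPM per kb held by each gene within the 17 cadherins, the 4 syndecans and the 4 tetraspanins, in percent, for each of the 6 wells. CDH2 and SDC2 take smaller shares in the vitamin C wells, with means of 64.3% and 50.0% against 70.2% and 57.7% in control wells, while CD63 holds most of the tetraspanin total in every well.

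Of the 4 tetraspanins, 3 were higher with vitamin C. CD63, found in lysosomes, melanosomes and exosomes, stood at 327.3, 328.9 and 329.6 CPM in control wells and 356.2, 379.0 and 450.5 CPM in vitamin C wells. The control wells were nearly equal and vitamin C replicate 3 stood highest (log2 fold change 0.27, standard error 0.07, edgeR adjusted p = 0.024). Without that library the log2 fold change was 0.17 (edgeR adjusted p = 0.012), and the call was lost without any of the 3 control replicates (adjusted p from 0.078 to 0.084). CD63 shares 9.001% of its exon bases with AC009779.2 on the opposite strand, which had 1139 counts in all libraries.

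CD9, a tetraspanin of adhesion and fusion, was at 24.2, 20.7 and 22.5 CPM in control wells and 27.6, 26.1 and 30.2 CPM in vitamin C wells. Its groups did not overlap (log2 fold change 0.31, standard error 0.08, edgeR adjusted p = 0.026), and the call was lost without control replicate 2 or 3. CD82 (KAI1), known as a metastasis suppressor, was low, at 3.39, 2.35 and 2.79 CPM in control wells and 3.99, 4.01 and 5.25 CPM in vitamin C wells. It had the largest log2 fold change of the tetraspanins, 0.60 with a standard error of 0.18 (edgeR adjusted p = 0.044), and the call was lost in 7 of 16 settings, including limma voom (adjusted p = 0.054). CD151, a partner of laminin-binding integrins, overlapped between groups at 56.6, 50.3 and 55.6 CPM against 47.0, 51.3 and 52.2 CPM (log2 fold change -0.11, edgeR adjusted p = 0.31).

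Among the catenins and junction adaptors, which tie adhesion molecules to the cytoskeleton, 2 of 21 tested genes were higher and 2 lower. EZR (ezrin) was higher, at 158.1, 156.0 and 160.8 CPM against 187.7, 186.7 and 205.3 CPM (log2 fold change 0.29, edgeR adjusted p = 0.0018). PKP3, a desmosome plakophilin, was higher as well (0.92, edgeR adjusted p = 0.0045), and CTNNAL1, an alpha-catenin relative, was lower (-0.39, edgeR adjusted p = 1.9e-04). The core cadherin partners had small differences that were not called: CTNNB1 (beta-catenin) had a log2 fold change of -0.09, CTNNA1 of -0.04 and CTNND1 (p120) of 0.12.

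Of the tested genes of heparan sulfate synthesis and syndecan partners, 2 of 25 were higher and 3 lower. HS3ST1, which adds a sulfate group to heparan sulfate, was lower at 5.12, 5.03 and 5.01 CPM against 2.43, 2.71 and 3.10 CPM (log2 fold change -0.89, edgeR adjusted p = 0.0015). HPSE, the heparanase that cuts these chains, was higher (0.43, edgeR adjusted p = 0.0027). The glypican GPC6 was lower (-0.37, edgeR adjusted p = 0.018).

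In the rest of the cadherin superfamily, 2 of 19 tested genes were higher and 3 lower. The giant cadherin FAT4 was lower (log2 fold change -0.54, edgeR adjusted p = 6.7e-05), and DCHS1, the ligand of FAT4, was higher (0.60, edgeR adjusted p = 0.0038). FAT4 stood at 48.7, 52.2 and 47.8 CPM in control wells and 33.5, 34.4 and 34.3 CPM in vitamin C wells. PCDH9, a protocadherin, was higher (0.35, edgeR adjusted p = 0.0026).

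Other immunoglobulin adhesion genes were called higher in 7 of 28 cases and lower in 3. Among the higher ones, VCAM1 (14 and 58 counts per group) and CNTN5 (13 and 35) passed the filter only through the vitamin C wells. DESeq2 gave neither of them an adjusted p. PECAM1 (CD31), an adhesion molecule of endothelium and blood cells, was higher at 1.08, 1.19 and 1.05 CPM against 3.41, 3.28 and 3.49 CPM (log2 fold change 1.60, edgeR adjusted p = 1.0e-04), and it is among the endothelial markers given earlier. NEGR1, a neuronal growth regulator, was higher (0.47, edgeR adjusted p = 4.1e-04), and IGSF11 was lower (-0.62, edgeR adjusted p = 9.6e-04). Of the 17 other tetraspanins tested, TSPAN33 was called lower (-0.99, edgeR adjusted p = 0.0065). None was called higher by edgeR or DESeq2, and at an unadjusted edgeR p under 0.05 TSPAN8 (1.15) and TSPAN13 (0.13) had values on that side. TSPAN8 also passed the filter only through the vitamin C wells.

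Among the sheddases and ligands, 6 of 24 tested genes were higher and 3 lower. ADAM12, a metalloproteinase, was higher (log2 fold change 0.99, edgeR adjusted p = 9.0e-05), as was NRP1, a co-receptor of VEGF and semaphorins (0.23, edgeR adjusted p = 0.0031). SPP1 (osteopontin), a ligand of CD44 and integrins, was lower (-0.30, edgeR adjusted p = 4.8e-04). The genes called in either direction were 4 of 21 in the catenin list and 5 of 25 in the heparan sulfate list. They made up 26.3% of the cadherin superfamily list, 35.7% of the immunoglobulin list, 5.88% of the tetraspanin list and 37.5% of the sheddase list, against 11.2% of all tested genes. The immunoglobulin share includes VCAM1 and CNTN5, which passed the filter only through the vitamin C wells.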

How the data were processed

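RNA-seq was analysed for 3 control wells and 3 vitamin C wells of A2058 cells, grouped by the treatment label. The deposited values are raw counts of reads per gene: per the study's methods, the authors depleted ribosomal RNA, sequenced paired-end reads, aligned them with STAR and counted them with HTSeq against GENCODE v19, while the submitters' processing notes name hg38, Trim Galore and CASAVA 1.4. The sources used here do not say whether counting used strand, so it is not known how reads of genes that overlap on opposite strands were assigned.

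Counts were scaled by TMM, filtered with filterByExpr and tested over 16353 genes with edgeR 4.0.16 (glmQLFit and glmQLFTest, R 4.3.3), with Benjamini-Hochberg adjustment over all of them and a threshold of 0.05. DESeq2 1.42.0 and limma 3.58.1 (voom) served as alternatives, beside other scalings, filters, edgeR's exact test, the replicate number as a block, a threshold of 0.01 and each library left out in turn. The scripts were tested on simulated data. CPM are counts scaled to the TMM-adjusted library size. They were divided by the union of exons (GENCODE 29, GRCh38) to compare levels between genes. Symbols were taken from the same annotation, which matched 57055 of the 60675 gene identifiers. Promoters came from RefSeq GRCh38.p14.

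Because all wells hold the same line, the p-values cover well-to-well spread only. The members and lists were chosen with earlier results of these data known. Each called member and the most abundant member of each family are given with all wells, members under the filter by counts, and up to 3 called genes per related list by smallest p; genes named beyond this were chosen after their values were seen. Same-numbered wells did not deviate together (correlations 0.12, -0.02 and 0.09), so the numbers were not taken as pairs.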

Additional observations from a re-analysis of the deposited data

How the results depend on the processing

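Of the 15 called adhesion genes, 7 (CDH19, CHL1, NRCAM, NCAM1, CADM1, F11R and SDC2) kept their call in all 16 settings tried at an adjusted p of 0.05, the other 8 lost it in at least 1, and 0 changed direction. The count of higher members, 8 in the report, was 6 to 9 under other scalings, filters and tools, and that of lower members, 7 in the report, was 5 to 7. Over all genes those settings called 892 to 1150 higher and 752 to 1031 lower, against 996 and 833 in the main fit. Leaving out each library in turn gave 3 to 8 higher members and 4 to 6 lower members. The lowest counts came without control replicate 3 (3 higher) and without control replicate 2 (4 lower). These fits hold fewer samples, and over all genes they called 549 to 1184 higher and 411 to 911 lower, against 996 and 833. At an adjusted p under 0.01, 3 members were higher and 5 lower, and the count over all genes at that threshold is not given here. With the replicate number as a block there were 9 higher and 7 lower members, and 1020 higher and 893 lower over all genes. CADM4 passed the threshold in that fit (edgeR adjusted p = 0.042), and the wells share only a number. Of the fold changes near 0, that of NECTIN3 turned to 0.003 under library size scaling. With each library left out in turn, it ran from -0.027 to 0.004 for NECTIN3, from -0.064 to 0.012 for MCAM and from -0.042 to 0.002 for CD44. The cause was not tested. Of 374 counts of called genes recomputed for the related and marker lists, 40 moved by more than 1.5 times. Depth limits CDH1, CDH3 and the other members with few counts, where a difference of a few reads decides the value.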
